A study of Mus musculus with 4 samples.

Results

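Choroid plexus epithelial cells were chosen by measured values in 2 single-cell libraries of mouse brain, from the UMIs (unique molecular identifiers, each counting 1 captured RNA molecule) of 5 genes. A cell barcode was a member when Folr1, Clic6, Kcne2, Kl and Otx2 together gave at least 4 UMIs, with at most 1 UMI of the microglial genes P2ry12 and Cx3cr1, at most 3 of the ependymal genes Ccdc153 and Tmem212 and at most 1 of the endothelial gene Cldn5. The 5 genes are therefore high in members by choice, and their levels are given as a description. The rule found 80 members among 23857 kept brain barcodes, 63 of them untreated and 17 from NPs mice. Only 50 of the 80 carried Ttr at the level of choroid plexus epithelium, so the label held for 39 untreated and 11 NPs members, and the other members are named below by the genes that led them.

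The choroid plexus is a folded sheet of epithelium that hangs into the ventricles of the brain around leaky capillaries and secretes cerebrospinal fluid. Its cells pump ions and bicarbonate at the ventricular face, which draws water across, seal the blood side from the fluid with claudin-rich tight junctions, carry vitamins and hormones, and release proteins such as transthyretin into the fluid. They arise from the dorsal midline of the neural tube under the homeobox factor OTX2 and bear tufts of cilia.

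All mice were wild type. The untreated brain library came from mice given nothing, and the NPs brain library from mice given NPs, an abbreviation that the labels leave unexplained, for 2 months. The labels name BALB/c mice of 5 weeks and ICR mice of 6 months without saying which gave which tissue, and do not say how many animals or which brain regions entered a library. The tissue was digested with enzymes and cleared of red cells and dead cells, and 10x Genomics 3' libraries were made. The untreated library held 70594935 UMIs in 11754 barcodes (median 5026.5) and the NPs library 63889853 in 12226 (median 4638.5). Of these, 11668 and 12189 were kept (at least 500 UMIs and 200 genes, at most 20% mitochondrial UMIs). The libraries shared 35 barcodes, none of them a member. With 1 library per group there is no replicate error and no test, and the intervals given here are exact 95% intervals that cover counting error only.

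Members made up 0.540% (0.415 to 0.690%) of kept barcodes in the untreated and 0.139% (0.0813 to 0.223%) in the NPs library. They were not of 1 kind. Ttr, which encodes the thyroxine and retinol carrier transthyretin and was not used by the rule, split them without overlap. The highest Ttr share below a limit of 2% of UMIs was 0.620% in the untreated and 0.0203% in the NPs library, and the lowest above it was 3.01% and 7.50%. The 39 untreated and 11 NPs members above the limit, called Ttr-rich here, were 61.9% (48.8 to 73.9%) and 64.7% (38.3 to 85.8%) of all members. Below it lay 11 untreated and 2 NPs members with at least 5 UMIs of Sspo, the gene of the giant secreted protein SCO-spondin, and 12 and 4 members with at least 10 UMIs over 8 astrocyte markers. The last untreated member fitted none of these. The split was made after the values were seen.

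**Figure D1:**
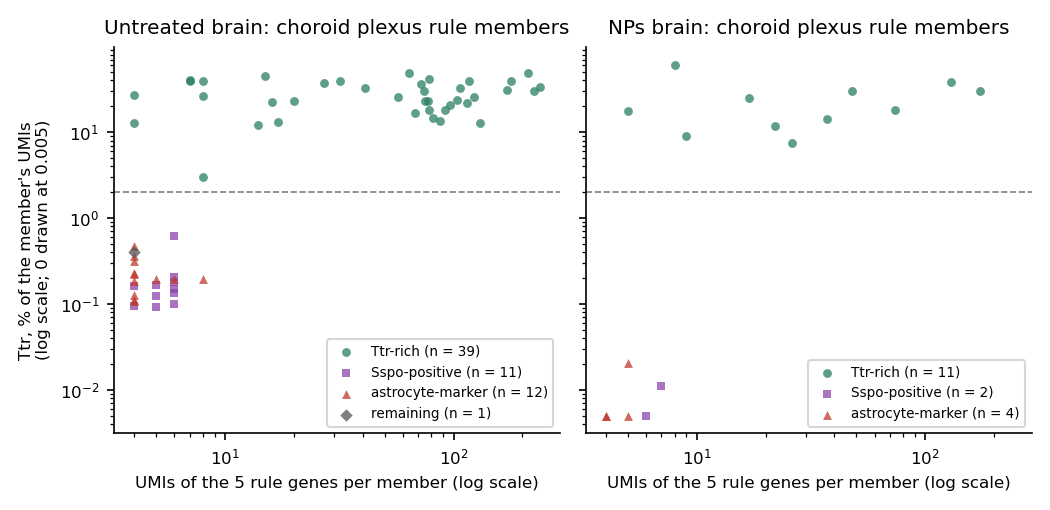
Each point is 1 member, placed by its UMIs over the 5 rule genes (log axis) and by Ttr as a percent of its UMIs (log axis, 0 drawn at 0.005), with colour and shape giving the kind and the dashed line the limit of 2%. Ttr-rich members reached marker sums of 239 and 173, while all other members lay at 8 or below.

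The members just inside and just outside the threshold show what the limit of 4 UMIs does. Among barcodes that met the other limits, 14 untreated barcodes had a sum of exactly 4, and 2 of them had Ttr above 2%, while of 14 with a sum of 3 only 1 did. In the NPs library 2 barcodes had a sum of 4 and 17 a sum of 3, and none of them passed 2% Ttr. A barcode at the threshold was therefore seldom Ttr-rich. Median marker sums were 74 and 26 UMIs in the untreated and NPs Ttr-rich members, 6 and 6.5 in the Sspo-positive members, and 4 and 4.5 in the astrocyte-marker members.

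The limits on other cell types, in turn, left out most of the deep barcodes with choroid plexus RNA. Of 235 untreated and 57 NPs barcodes with a marker sum of at least 4, 172 and 40 were left out. Among those, 93 and 11 had at least 10% Ttr, against 38 and 9 members at that level. They were far deeper, with medians of 42663 and 32653 UMIs against 13757.5 and 8098 in the members at that level. The microglial pair removed 92 of the 93 and all 11. In 42 and 4 of them it had 2 or 3 UMIs, in 34 and 4 it had 4 to 9, and in 16 and 3 it had 10 or more. P2ry12 and Cx3cr1 together stood at 148 and 893 CPM (UMIs of a gene per 1e6 UMIs, over the summed barcodes) in these left-out barcodes, at 31.1 and 33.2 in the members at that Ttr level, and at 8561 and 9079 in microglial barcodes. C1qa, a complement gene of microglia that the rule did not use, was at 112 and 656 CPM in the left-out barcodes, 73.1 and 49.9 in the members and 7711 and 8157 in microglial barcodes. The part of microglial RNA in what these barcodes hold was not tested.

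The left-out barcodes with at least 10% Ttr carried choroid plexus genes at levels near those of the members. The marker genes compared include the rule genes and Ttr, on which both sets were chosen. For those genes the likeness is partly set by the choice. Lbp and Cldn2, at the ends of the untreated range, were not used in it. Over 19 marker genes their level divided by that of the members with at least 10% Ttr ranged from 0.865 (Lbp, an endotoxin-binding protein, at 575 against 665 CPM) to 1.31 (Cldn2, a claudin, at 196 against 149 CPM) in the untreated library, with a median of 0.983. In the NPs library, with 11 against 9 barcodes, the range was 0.332 to 1.35 with a median of 0.965. Members and left-out barcodes with at least 10% Ttr came to 131 and 20 together, which is 1.12% (0.94 to 1.33%) of the untreated and 0.164% (0.10 to 0.253%) of the NPs barcodes.

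**Figure D2:**
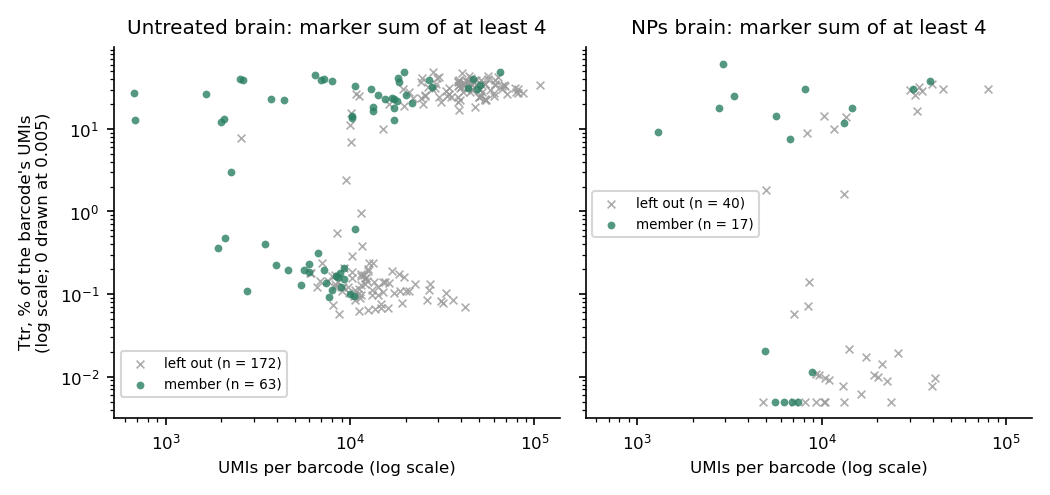
Each point is a kept barcode with a marker sum of at least 4, placed by its UMIs (log axis) and by Ttr as a percent of its UMIs (log axis, 0 drawn at 0.005). Green circles are members and grey crosses are barcodes that the limits on other cell types left out, and most barcodes at the upper right, deep and rich in Ttr, are crosses.

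Choroid plexus RNA in microglial barcodes differed between the libraries. Microglial barcodes had at least 4 UMIs of the microglial pair and a choroid plexus marker sum under 4. A Ttr UMI was found in 99.9% of 5753 of them in the untreated and in 54.4% of 6993 in the NPs library. Their median depths were 5149 and 4850 UMIs. Their Ttr level was 2031 CPM in the untreated and 157 CPM in the NPs library. Over the 19 choroid plexus genes the microglial level was a median of 0.457% (0.181 to 1.79%) of that in Ttr-rich members in the untreated library and 0.0706% (0.0198 to 0.569%) in the NPs library. Beside the level of a Ttr-rich member the microglial level was small in both libraries. The 19 genes include the rule genes and Ttr, on which these sets were chosen, so for those genes the gap is partly set by the choice. The Sspo-positive and astrocyte-marker members of the untreated library had Ttr medians of 0.151% and 0.195%, at or below the microglial median of 0.200%. Single members ranged from 0.0912 to 0.620% and from 0.109 to 0.474%. Whether the Ttr in microglial barcodes or in these members is free RNA, from outside the cell, was not tested.

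Ttr-rich members were dominated by secreted products. Each RNA molecule is counted once, at its 3' end, so levels of different genes are compared without a correction for length. Ttr was 318032 CPM (316657 to 319410) in the untreated and 274764 CPM (271904 to 277647) in the NPs library. Its share of the UMIs of a member ran from 3.01 to 49.3% with a median of 26.2% in the untreated library and from 7.50 to 61.3% with a median of 17.9% in the NPs library, and the groups overlapped over nearly their whole range. Enpp2, which encodes autotaxin, the enzyme that makes lysophosphatidic acid, followed with 29673 and 32203 CPM. Igfbp2, a binding protein of insulin-like growth factors, stood at 2957 and 3350 CPM, the augurin gene 1500015O10Rik at 2654 and 2407, Clu (clusterin) at 1910 and 1940, Kl (the anti-ageing protein klotho) at 1766 and 1675 and Sostdc1, an inhibitor of BMP and Wnt signals, at 1735 and 1581. Ptgds, a prostaglandin synthase and carrier of the cerebrospinal fluid, gave 990 and 888 CPM. Igf2 was barely seen, with 13 UMIs in 9 of 39 untreated and 4 UMIs in 2 of 11 NPs members, or 20.1 CPM (10.7 to 34.4) and 31.2 CPM (8.49 to 79.8).

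Genes of ion and water transport were present as a set. Of 28 listed genes 22 had at least 50 UMIs over both libraries. Atp1b1, a subunit of the sodium pump, stood at 1789 CPM in untreated Ttr-rich members and at 1161 in NPs ones. Trpm3, a calcium-permeable channel, was at 1586 and 1940 CPM, the potassium channel Kcnj13 at 1132 and 732 and the potassium channel subunit Kcne2 at 463 and 312. Slc12a2, the sodium-potassium-chloride cotransporter, was at 768 and 584 CPM. The bicarbonate carriers Slc4a2, Slc4a10 and Slc4a5 were at 524, 485 and 297 CPM in the untreated and 421, 475 and 343 in the NPs library. Of the carbonic anhydrases Car12 was at 500 and 444 CPM and Car2 at 490 and 865. The water channel Aqp1 was at 118 CPM (92.8 to 147) and 125 CPM (71.2 to 202), with a UMI in 20 of 39 and 6 of 11 members. In untreated microglial barcodes Kcnj13 was at 5.95 CPM, and Kcne2, Slc4a5, Car12 and Aqp1 were lower still.

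Carriers, receptors and junction genes were present too. Slc22a17, a lipocalin receptor, was the highest of the listed carriers at 1479 and 1566 CPM, ahead of the folate receptor Folr1 at 1309 and 872. The thyroid hormone carrier Slco1c1 was at 319 CPM in the untreated and 351 in the NPs library, the monocarboxylate carrier Slc16a8 at 184 and 187 and the vitamin C carrier Slc23a2 at 223 and 226. Prlr, the prolactin receptor, led the listed receptors with 3416 and 2103 CPM. Its per-member values ran from 0 to 8712 CPM with a median of 2768 in the untreated library and from 0 to 3276 with a median of 1433 in the NPs library, so the groups overlapped. Htr2c, the serotonin receptor for which the choroid plexus is known, was at 527 and 740 CPM and had no UMI in any Sspo-positive or astrocyte-marker member. Cldn2, the claudin of leaky, water-permeable junctions, was at 149 and 148 CPM, the keratin Krt18 at 240 and 296 and the membrane linker Ezr at 457 and 452. Among transcription factors Msx1 was at 345 and 374 CPM, Otx2 at 322 and 335, and Foxj1, the master factor of motile cilia, at 80.6 and 101, while Pax6 had no UMI in any Ttr-rich member.

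Cilium genes were present in part. The axonemal gene Rsph1 stood at 265 CPM in untreated and 335 in NPs Ttr-rich members, against 1194 CPM in untreated ependymal barcodes, the multiciliated cells that line the ventricles. Calml4 was as high in untreated Ttr-rich members as there, at 592 against 586 CPM. Tppp3, Fam183b and Riiad1 were at 1.55, 3.10 and 0 CPM in untreated Ttr-rich members against 730, 959 and 413 CPM in ependymal barcodes.

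**Figure D3:**
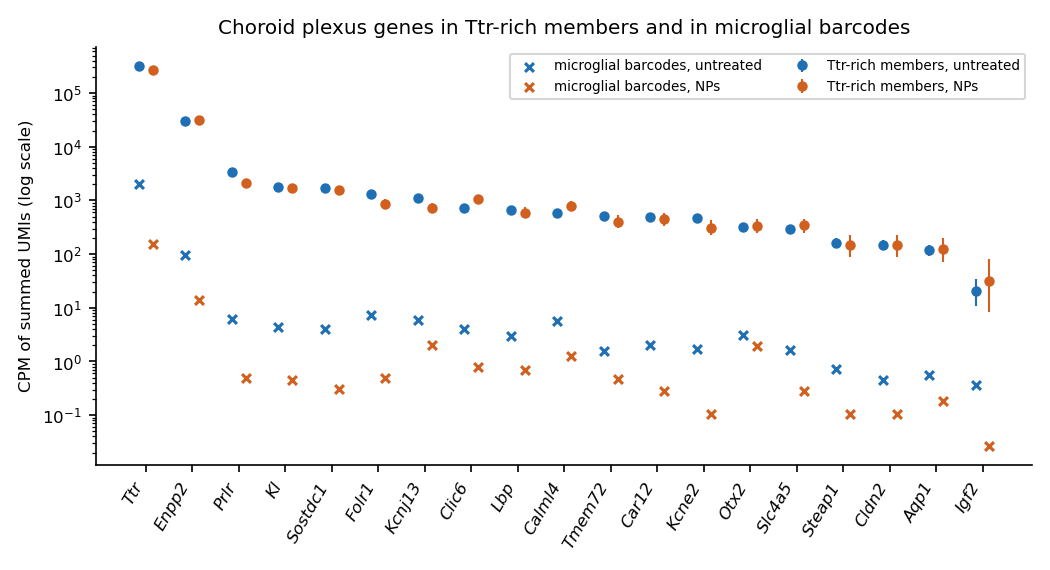
Levels of 19 choroid plexus genes in CPM of summed UMIs (log axis) in Ttr-rich members (circles, bars are 95% counting intervals) and in microglial barcodes (crosses), blue for untreated and orange for NPs. Circles of both libraries lie close together for nearly all genes, while the crosses lie far lower and lower still in the NPs library.

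Most markers of other cell types were low in Ttr-rich members, where the rule itself caps 2 microglial, 2 ependymal and 1 endothelial gene of these lists. The 10 microglial markers summed to 406 and 522 CPM, against 21091 and 25874 in all other brain barcodes with a marker sum under 4. The 8 astrocyte markers summed to 152 and 179 CPM against 7870 and 7188, and the 8 endothelial markers to 115 and 171 against 936 and 646. The 9 ependymal markers, which include the shared gene Foxj1, reached 225 and 335 CPM against 297 and 82.1, so in the NPs library they were higher in Ttr-rich members. The 7 stromal fibroblast markers were at 69.7 and 85.7 CPM against 85.2 and 71.2. Scrublet, which scores likeness to artificial doublets, called 3 untreated members and no NPs member.

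The genes that varied most among Ttr-rich members were of several kinds. Ranked by the spread of UMIs beyond that of counting and depth, taking for each gene the worse of its ranks in the 2 libraries, Enpp2, Ttr, Malat1, Igfbp2, Kl and Trpm3 were among the 15 leading genes of 2094. The other 9 included Tpt1, Fth1 (a ferritin chain) and Ppia, which most cell types express. Enpp2 ran from 0.381 to 7.64% of a member's UMIs in the untreated library (median 2.45%) and from 0.361 to 6.89% in the NPs library (median 3.89%). Enpp2 and Kl were high in the same members, with a Spearman rho of 0.83 over 39 untreated and 0.88 over 11 NPs members, whereas Ttr and Kl went opposite ways at -0.74 and -0.23 and Ttr and the mitochondrial share at -0.73 and -0.41. These correlations are across members of 1 library, which share its free RNA, and each measure is a share of the same UMI total. One untreated member of 20137 UMIs had no Prlr UMI but 699 of Enpp2 and 5121 of Ttr, and the neighbours in depth, of 19654 and 21793 UMIs, had 44 and 176.

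**Figure D4:**
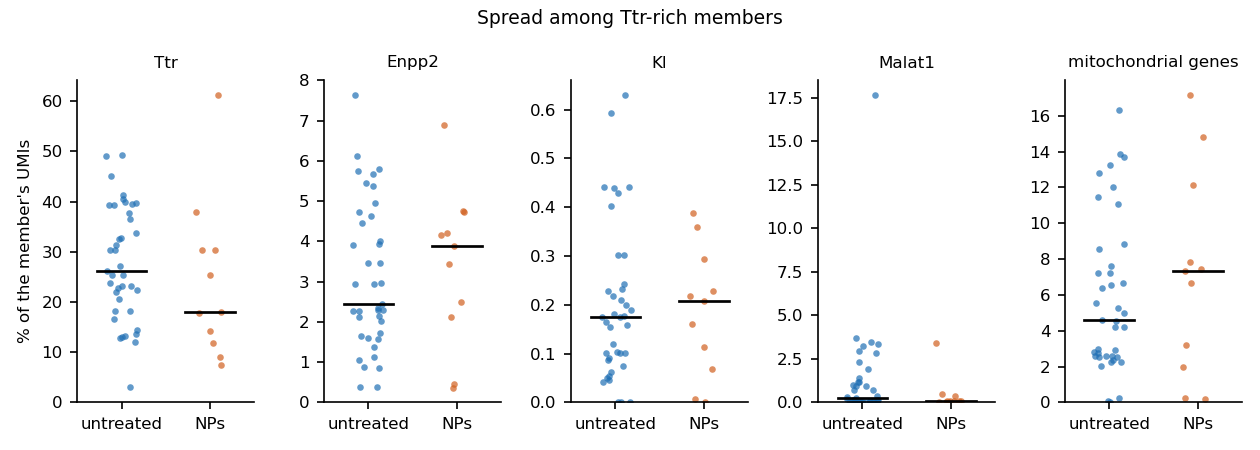
Each point is a Ttr-rich member and gives the percent of its UMIs from Ttr, Enpp2, Kl, Malat1 or mitochondrial genes, blue for 39 untreated and orange for 11 NPs members, with the median as a black line. The spread within a library was wider than the difference between the library medians for each of these 5 measures.

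Nuclear RNA was scarce in some Ttr-rich members. Malat1, a long RNA that stays in the nucleus and is abundant in nearly all intact cells, was under 0.1% of UMIs in 13 of 39 untreated and 7 of 11 NPs members, with medians of 0.251% and 0.0741%. Xist, the RNA of the inactive X chromosome, had no UMI in 13 of 39 and 6 of 11, and no member held a UMI of the Y-linked genes. Mitochondrial genes gave under 1% of UMIs in 3 and 2 members. The medians of the mitochondrial share were 4.62% and 7.34%. The 2 deepest Ttr-rich members held 17.9% of all UMIs of the group in the untreated but 54.3% in the NPs library.

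The Sspo-positive members were led by other genes. SCO-spondin is the secreted product of the subcommissural organ, another gland of the dorsal midline, from which it enters the cerebrospinal fluid. Sspo stood at 3494 CPM in the 11 untreated and 4419 in the 2 NPs members, with 18 to 50 and 16 to 48 UMIs per member, against 1.55 and 0 CPM in Ttr-rich members. Beside it stood Rbp4 (retinol binding protein) at 3152 and 2693 CPM, Spp2 (secreted phosphoprotein 24) at 2128 and 1795, Car3 (a cytosolic carbonic anhydrase) at 914 and 3107 and the ETS factor gene Spdef at 612 and 829, and these 4 genes had no UMI in any Ttr-rich member. They shared with Ttr-rich members Wfdc2 (1235 CPM in the untreated library) and Msx1 (582). Otx2, at 422 CPM, gave 42 UMIs over the 11 untreated members and is the gene that gave most of their rule UMIs, so its level describes the choice. Kl, Kcne2 and Aqp1 had no UMI in them. Of 14 choroid plexus markers that the rule did not use, 8 had no UMI in the 11 untreated members and 6 had some. Among these 6, Kcnj13 had 22 UMIs in 8 members. Calml4 had 165 UMIs in all 11, with a median of 1595 CPM per member. The rule gene Folr1 had 15 UMIs in 8 members. The Sspo-positive members also carried Foxj1 at 582 CPM and Wls, a protein that exports Wnt ligands, at 1144 CPM against 231 in untreated Ttr-rich members. All 11 untreated members held Xist, and their Malat1 shares, 1.48 to 6.21%, all lay above the untreated Ttr-rich median.

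The astrocyte-marker members passed the rule on few UMIs. Their 8 astrocyte markers summed to 21233 and 21255 CPM, Apoe (the lipid carrier of astrocytes) stood at 20373 CPM in the untreated library against 5013 in Ttr-rich members, and Kl and Kcne2 had no UMI in any of them. The marker sum came from Clic6 with 29 UMIs in 10 and Otx2 with 24 UMIs in 9 of the 12 untreated members, and from Clic6 with 4 UMIs in 3 and Otx2 with 14 UMIs in 4 of the 4 NPs members. Their Otx2 level, 397 CPM in the untreated library, was close to the 322 CPM of Ttr-rich members and far above 8.79 CPM in brain barcodes with a marker sum under 4. A barcode had to hold such UMIs to be a member, so these levels describe the choice.

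Promoter windows were read for TAATCC, the letters that OTX2 binds, on either strand. The 25 genes read were those highest in members against all other kept brain barcodes. These other barcodes included the left-out ones, which held 91.1% of their Ttr in each library. RefSeq windows (GRCm38.p6, 250 bases before to 50 after a start) were found for 19 of the 25 genes. Of their 27 windows 4 held the letters, or 14.8%, and of the 19 genes 3 did (Abca4, Mest and Spdef), or 15.8%. The 4 include 2 overlapping windows of Mest with the same site. Over all 32851 windows of that length 7.06% held them, and 8.14% of 27025 genes had such a window. A match is a description of letters only, and no share was tested. The windows of Abca4, a retinoid transporter gene of Ttr-rich members (163 and 109 CPM), of Spdef from the Sspo-positive members and the 1 of 4 Otx2 windows that holds them are shown with the letters in capitals, as GGATTA where they lie on the other strand, beside the window of Kl, which lacks them.
Abca4, chr3:122044210-122044509, plus strand: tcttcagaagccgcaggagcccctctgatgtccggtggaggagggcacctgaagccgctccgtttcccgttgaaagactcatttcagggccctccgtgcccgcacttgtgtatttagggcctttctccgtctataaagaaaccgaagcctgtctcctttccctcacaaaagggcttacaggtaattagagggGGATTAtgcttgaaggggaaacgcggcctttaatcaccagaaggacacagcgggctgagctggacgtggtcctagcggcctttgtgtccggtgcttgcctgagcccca
Spdef, chr17:27728902-27729201, minus strand: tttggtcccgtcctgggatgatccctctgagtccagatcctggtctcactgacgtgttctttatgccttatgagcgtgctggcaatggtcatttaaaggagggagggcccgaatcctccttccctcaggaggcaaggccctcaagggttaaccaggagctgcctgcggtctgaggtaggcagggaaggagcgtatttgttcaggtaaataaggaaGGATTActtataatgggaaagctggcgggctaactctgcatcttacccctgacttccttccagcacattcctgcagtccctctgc
Otx2, chr14:48665060-48665359, minus strand: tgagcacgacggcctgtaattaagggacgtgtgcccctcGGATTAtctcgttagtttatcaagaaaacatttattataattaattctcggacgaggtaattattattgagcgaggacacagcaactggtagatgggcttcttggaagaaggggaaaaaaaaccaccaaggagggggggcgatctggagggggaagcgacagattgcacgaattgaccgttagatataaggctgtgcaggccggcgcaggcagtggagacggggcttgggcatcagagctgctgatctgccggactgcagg
Kl, chr5:150952357-150952656, plus strand: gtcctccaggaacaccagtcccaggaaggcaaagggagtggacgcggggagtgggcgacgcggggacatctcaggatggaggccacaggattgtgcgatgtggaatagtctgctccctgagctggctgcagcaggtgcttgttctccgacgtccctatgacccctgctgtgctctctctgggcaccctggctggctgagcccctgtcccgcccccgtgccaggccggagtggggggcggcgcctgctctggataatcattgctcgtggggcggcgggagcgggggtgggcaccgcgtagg
The capitals begin 58 bases before the start in Abca4, 35 in Spdef and 211 in Otx2.

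The share of these cells was lower in the NPs library. Ttr-rich members made up 0.334% (0.238 to 0.457%) of untreated and 0.0902% (0.0451 to 0.161%) of NPs barcodes, and with the left-out barcodes of at least 10% Ttr the shares were 1.12% and 0.164%. Ttr in microglial barcodes was lower in the same library, as given above. Other kinds were lower there too. Sspo-positive members were 0.0943% of untreated and 0.0164% of NPs barcodes, and astrocyte-marker members 0.103% and 0.0328%. Ependymal barcodes numbered 69 untreated and 7 NPs, and endothelial ones 280 and 217, while microglial barcodes numbered 5753 and 6993. How much choroid plexus was dissected with each brain is not stated, so the tissue taken, the cells recovered and the treatment cannot be told apart with 1 library each.

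Few genes differed by 2-fold between the members of the libraries. Of 2831 genes with a mean of at least 50 CPM and at least 50 UMIs, 70 (2.47%) were higher in the NPs members by 2-fold or more and 47 (1.66%) were lower. Within Ttr-rich members 52 (2.61%) of 1989 were higher and 76 (3.82%) lower by that measure. The untreated members held 809040 UMIs and the NPs members 168448. Genes high in the untreated members therefore pass the limit of 50 UMIs more easily. The genes described next are from the 12 largest and 12 smallest ratios. Only genes at least as high in members as in all other kept brain barcodes, in the library where they were higher, were ranked.

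Cpe, which encodes carboxypeptidase E, a processing enzyme of prohormones, had a far higher level in Ttr-rich members of the NPs library. The gene (chromosome 8, 64592542 to 64693054, minus strand, GRCm38) had 29 UMIs in 13 of the 39 untreated members and 51 UMIs in 8 of the 11 NPs members, at most 7 and 23 in 1 member. Its level was 44.9 CPM in the untreated and 397 in the NPs library, 8.84-fold higher (5.50 to 14.5). The left-out barcodes with at least 10% Ttr met the marker sum of the rule and share the free RNA of their library. In them Cpe was at 40.7 CPM on 167 UMIs in the untreated and 295 CPM on 107 UMIs in the NPs library. In brain barcodes with a marker sum under 4 Cpe was nearly equal, at 540 and 531 CPM, and in microglial barcodes it was at 126 and 114. The astrocyte markers were at 152 and 179 CPM in the same Ttr-rich members, and Cpe was at 1604 CPM in untreated astrocyte-marker members. The part of astrocyte RNA in these Cpe levels was not tested. Over all members the ratio was 2.66 (2.08 to 3.37), and among the members with no UMI of the other cell types' genes (30 and 7) its log2 was -0.04.

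Other genes were higher in the NPs members on few UMIs. Lrrk2, a kinase of endolysosomal membranes, was 3.29-fold higher (1.92 to 5.56), with 38 UMIs in the untreated and 26 in the NPs members, 12 of the 26 in 1 member. Sra1, Ugp2, Spag7, Postn, Pfdn1 and Cyp2j6 were 2.28- to 2.93-fold higher, each with at most 61 UMIs in the untreated and 29 in the NPs library. In the left-out barcodes Lrrk2 was at 65.9 CPM in the untreated and 55.1 in the NPs library, Sra1 at 79.3 and 66.2, Ugp2 at 70.7 and 57.9, Spag7 at 72.7 and 74.4 and Postn at 70.5 and 91.0. Car3, 2.38-fold higher (1.62 to 3.43), rested on Sspo-positive members, where 1 of the 2 NPs members held 68.9% of its UMIs. Gria1, a glutamate receptor subunit, rested on astrocyte-marker members, as did Cyp2j6, of whose UMIs only 8 of 32 in the untreated and 5 of 18 in the NPs library were in Ttr-rich members.

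A2m, a broad protease inhibitor (chromosome 6, 121635376 to 121679227, plus strand, GRCm38), was lower in the NPs library in members and in left-out barcodes. It had 193 UMIs in 34 of 39 untreated Ttr-rich members and 9 UMIs in 4 of 11 NPs ones. It was at 299 CPM in the untreated and 70.1 CPM in the NPs library, 4.27-fold lower (2.20 to 9.47). In the left-out barcodes it was at 278 and 108 CPM. In brain barcodes with a marker sum under 4 it was at 25.3 and 15.8 CPM. Bst2, the interferon-induced membrane protein tetherin, was at 296 and 101 CPM in Ttr-rich members, 2.92-fold lower (1.67 to 5.59). A single untreated member held 32.8% of its UMIs in that library, and in the left-out barcodes Bst2 was at 293 and 204 CPM. Nme7, a nucleoside diphosphate kinase family gene of cilia and centrosomes, had 79 UMIs in 21 untreated Ttr-rich members and none in the 11 NPs ones. It was 5.24-fold lower with 3 counts in place of 0, and the lower limit of its interval was 4.16-fold. In the left-out barcodes it was at 50.5 and 44.1 CPM.

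Cspp1, Cers2, Pcsk2, Gna11, Fat1 and Pcbp4 were 2.67- to 4.79-fold lower on 4 to 6 UMIs in the NPs members. In the left-out barcodes Cspp1 was at 37.8 and 44.1 CPM, Cers2 at 100.0 and 77.2 and Pcsk2 at 71.2 and 68.9. Epha7 and Marcksl1, 3.59- and 3.50-fold lower, were carried by Sspo-positive members. They were at 653 and 783 CPM in the untreated ones against 4.65 and 7.75 in Ttr-rich members. Dynlrb2, 2.75-fold lower on 5 UMIs in the NPs members, was at 391.5 against 40.3 CPM in the same comparison. Within Ttr-rich members its ratio of NPs over untreated was 0.77 (0.20 to 2.23). The NPs library had only 2 Sspo-positive members.

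**Figure D5:**
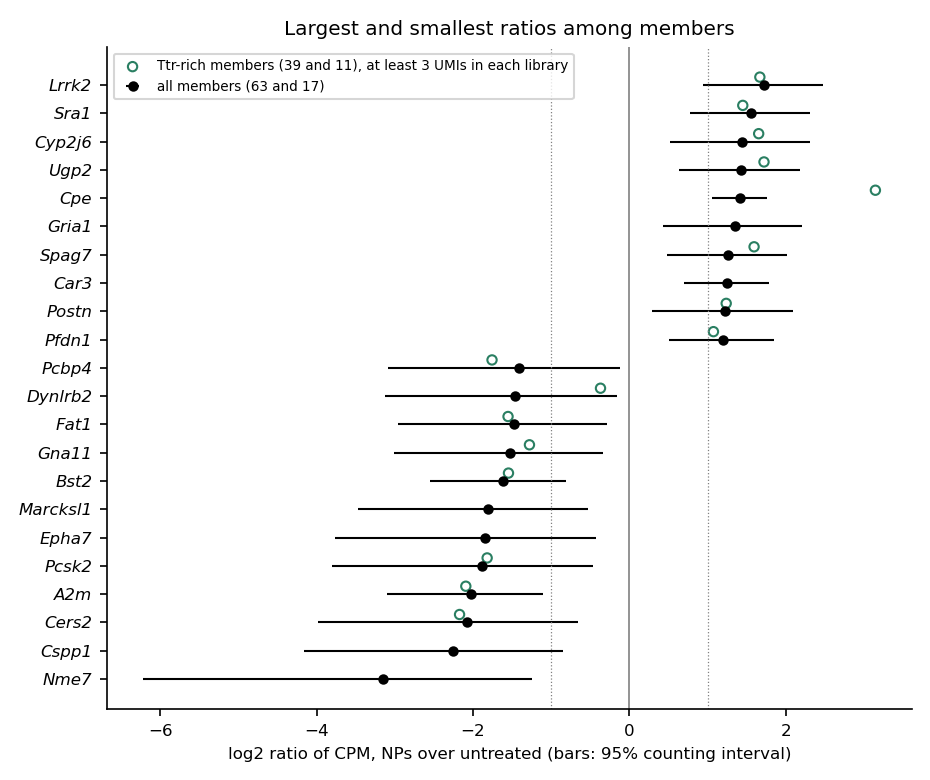
The log2 ratio of CPM, NPs over untreated, for genes from the 12 largest and 12 smallest ratios over all members (black, with 95% counting intervals) and over Ttr-rich members (open green circles, where each library had at least 3 UMIs). Dotted lines mark 2-fold, and Cpe is the gene whose Ttr-rich value lies farthest above its value over all members.

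Among choroid plexus genes, Prlr and the rule gene Folr1 were lower in the NPs library. In Ttr-rich members the ratio of NPs over untreated was 0.62 for Prlr (0.54 to 0.70), 0.65 for Kcnj13 (0.52 to 0.80) and 0.67 for Folr1 (0.54 to 0.81). It was 0.86 for Ttr (0.85 to 0.87), 0.95 for Kl (0.82 to 1.10), 1.09 for Enpp2 (1.05 to 1.12) and 1.41 for Htr2c (1.11 to 1.77). These intervals hold no spread between members or mice. In the left-out barcodes Prlr was at 3207 CPM in the untreated and 2095 in the NPs library, Folr1 at 1145 and 874, Kcnj13 at 1002 and 1023 and Htr2c at 427 and 433. Prlr was thus lower in the NPs library in both sets of barcodes, while Kcnj13 and Htr2c were nearly equal in the left-out barcodes. Folr1 was lower in both sets too, but it is a rule gene, as is Kl. Both sets had to reach the marker sum, so the levels of these rule genes describe the choice. Over all barcodes with a marker sum of at least 4 and at least 10% Ttr, the median ratio of 19 genes was 0.93, with a range from 0.65 for Prlr to 1.18 for Aqp1. The 19 genes include the rule genes and Ttr, on which these barcodes were chosen, so that median is partly set by the choice. Prlr and Aqp1 were not used in it.

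Gene lists were read with a limit of 1.5-fold, at which 361 (12.3%) of 2939 genes with at least 50 UMIs were higher and 298 (10.1%) lower in the NPs members, with a median log2 ratio of 0.07. Within Ttr-rich members these shares were 14.3% and 11.6% of 1996 genes. The limit of 50 UMIs favours genes high in the deeper untreated library, in these shares and in each list. At 2-fold, 70 of the 2939 genes were higher and 80 lower. Of 22 genes of ion and water transport 3 were higher and 3 lower over all members. The higher ones were Car2 (490 CPM in untreated and 865 in NPs Ttr-rich members), Fxyd1, a regulator of the sodium pump (829 and 1324), and Trpv4, an osmosensing channel (143 and 249). The lower ones were Atp1b1, Kcnj13 and the rule gene Kcne2, with the levels given above. Of 18 secreted proteins only Col9a3, a collagen chain, was lower, at 672 and 366 CPM in Ttr-rich members. Of 12 carriers 3 were lower and none was higher. The lower ones were the rule gene Folr1, the sulfate carrier Slc13a4 (304 and 171 CPM) and the glucose carrier Slc2a1 (62 and 23.4 CPM). The NPs Ttr-rich members held 128372 UMIs in all. Levels under 50 CPM in them, here and in the lists below, rest on few UMIs.

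Of 9 junction and polarity genes 4 were higher and 1 lower over all members, and within Ttr-rich members 1 and 1 of 6. Krt8, a keratin, was at 79.0 and 164 CPM in Ttr-rich members and Cldn3 at 43.4 and 77.9, while Cdh2 and Cldn10 had their UMIs mostly in members of other kinds, and Ocln (occludin) was the lower one at 83.7 and 46.7 CPM. Of 13 receptors 2 were higher and 2 lower over all members, and within Ttr-rich members 0 and 1 of 7, the 2 lower ones being Prlr and Bmpr1a (66.6 and 23.4 CPM). In retinoid and thyroid hormone handling 1 of 9 was lower, Rbp4, which had UMIs in Sspo-positive members only. Cilium genes had 1 higher and 4 lower of 17 over all members, and 1 higher and none lower of the 5 measured within Ttr-rich members. Fam183b, Tppp3 and Dynlrb2, which were among the 4, stood at 984, 903 and 391.5 CPM in untreated Sspo-positive members.

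Of 17 antioxidant genes and metallothioneins 5 were higher and 1 lower over all members, with a median log2 ratio of 0.34. Within Ttr-rich members 4 were higher and 1 lower of 14. The list median ran from -0.16 to 0.51 over the alternatives. The higher ones over all members were Cat (catalase, 101 CPM in untreated and 210 in NPs Ttr-rich members), the peroxiredoxins Prdx1 (321 and 576) and Prdx6 (132 and 164), Gpx1, a glutathione peroxidase (75.9 and 164), and Gsta4, a glutathione transferase (204 and 374). Mt1, a metal-binding metallothionein, lay the other way in Ttr-rich members, at 211 and 62.3 CPM, on 136 and 8 UMIs. Nuclear subunits of oxidative phosphorylation had 2 higher, Cox6a1 (308 and 522 CPM in Ttr-rich members) and Sdhc (107 and 265), and none lower of 38, with a median of 0.17. The unfolded protein response had 2 higher and none lower of 14 (1 and 1 of 11 within Ttr-rich members), the higher ones including Atf4, a stress-induced transcription factor (63.5 and 132 CPM). Lysosome and endocytosis genes had 1 and 1 of 21, iron and copper handling 0 and 2 of 10 (but 2 and 0 of 9 within Ttr-rich members), and immediate early and heat shock genes 0 and 0 of 9. The lists hold few measured genes each, and antioxidant and nuclear respiratory genes were not tested against the shares over all genes.

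Genes of MHC class I presentation were largely in 1 untreated member. B2m, H2-D1 and H2-K1 stood at 350, 282 and 383 CPM in untreated and at 249, 179 and 288 in NPs Ttr-rich members. One untreated member of 50575 UMIs held 142 of the 226 B2m UMIs (62.8%), 93 of 182 for H2-D1 (51.1%) and 124 of 247 for H2-K1 (50.2%), with 12 UMIs of Cd74 and 4 of H2-Aa, which belong to class II, and 11 UMIs over the 10 microglial markers. Without it the untreated levels were 141, 150 and 207 CPM, below those of the NPs library, so that the direction turned. In the left-out barcodes B2m was at 155 CPM in the untreated and 267 in the NPs library, H2-D1 at 121 and 378 and H2-K1 at 195 and 284, beside the higher level of the microglial pair there in the NPs library, whose part was not tested. The median log2 ratio of the list, -0.38 on 6 measured genes, was 0.26 without the 2 deepest members of each library. In the other brain cells H2-D1 was at 455 and 1162 CPM and H2-K1 at 258 and 560. In Ttr-rich members the interferon genes Ifi27 (634 and 732 CPM) and Ifitm3 (112 and 109) were at like levels. Of the acute phase and cytokine list 3 of 32 genes were measured, and 2 were lower, Vcam1 at 181 and 70.1 CPM and Il6st at 72.8 and 31.2 CPM in Ttr-rich members. In the left-out barcodes Vcam1 was at 136 and 116 CPM.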

How the data were processed

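Single-cell 10x Genomics 3' libraries were analysed, 1 untreated and 1 NPs brain library, with the 2 intestine libraries of the series used only as a check of the rule. Per the submitters' processing notes the deposited matrices of UMI counts per gene and barcode came from Cell Ranger 5.0.1 with the GRCm38 genome, and whether reads in introns were counted is not given in the sources used here. The deposited counts were used as they stand. Barcodes under 500 UMIs, under 200 genes or over 20% mitochondrial UMIs were left out. UMIs were summed over members per library and scaled to CPM. Ratios of NPs over untreated carry a conditional exact binomial 95% interval and shares an exact Clopper-Pearson interval. With 1 library per group no p-value was computed. A gene with 0 UMIs in a library was set to 3 counts for its ratio.

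Genes with a mean of at least 50 CPM and at least 50 UMIs over both libraries were compared at 2-fold, and 21 gene lists and 14 marker lists at 1.5-fold with at least 50 UMIs. The members and lists were chosen with earlier results of these data known. For the choice of named genes, the other brain cells were all other kept brain barcodes, left-out ones among them. Named genes had the 12 largest and 12 smallest ratios among genes at least as high in members as in other brain cells in the library where they were higher, leaving out mitochondrial, ribosomal, hemoglobin and unnamed genes. To these were added up to 6 genes per list with the most extreme ratios, up to 4 with the highest CPM in lists of choroid plexus function, the 25 genes highest in members against other cells, the 15 most variable genes and all rule and marker genes. Some named genes are not reported here. Genes of the left-out barcodes and of the 1 deep member were chosen after their values were seen. Ribosomal protein genes and genes with close copies may share reads. Doublets were scored with Scrublet in scanpy 1.11.5 (2.94% and 2.01% of kept barcodes called) and kept, since leaving them out is an alternative. Variation among members was the variance of Pearson residuals (negative binomial, theta 100). The ratio and its interval were tested on simulated counts. Alternatives numbered 14, with 3 more chosen after seeing the data. Python 3.11.15, numpy 2.4.6, scipy 1.17.1, pandas 2.3.3 and matplotlib 3.10.9 were used.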

Additional observations from a re-analysis of the deposited data

Results flagged for a closer look

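Barcodes that passed the choroid plexus rule were also found in the untreated intestine library, where no choroid plexus exists. They were 70 of 16967 kept barcodes there, or 0.413% (0.322 to 0.521%), against 1 of 10647 (0.00939%) in the NPs intestine library. Their median of 52156 UMIs was far above the 2463 of all kept barcodes of that library. Their marker sum came from Clic6 with 317 UMIs and Kcne2 with 10, and Folr1, Kl and Otx2 had none. All 70 held Epcam, an epithelial adhesion gene, and Ttr had a median of 0.00336% of UMIs. Among their leading genes were Ghrl, the hormone ghrelin, at 78.2 against 5.39 CPM and Foxq1 at 72.6 against 19.7 CPM in the other barcodes.

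Car3 was higher in the members of the NPs library by a log2 ratio of 1.25. It was lower in brain barcodes with a marker sum under 4 by -1.37, from 4.21 to 1.62 CPM. The difference between these ratios was not tested, with 1 library per group, and 68.9% of the NPs members' Car3 UMIs were in 1 member.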

How the results depend on the processing

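No paired analysis was possible because each group has 1 library. The member share was lower in the NPs library under all alternatives, which left 8 of 20 shares beyond their interval. In the untreated library it was 0.309% with a marker sum of at least 8, 1.40% with at least 2 (NPs 0.755%), 0.377% without Otx2, 0.257% with other cell types at 0 UMIs (NPs 0.0574%), 0.334% for Ttr-rich members and 1.12% with at least 10% Ttr and no other limits. The last set, Ttr-rich members alone, and leaving out the 2 deepest members of each library were chosen after seeing the data.

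Counts of higher and lower genes, 70 and 47, depended on the setting (18 of 34 beyond 1.5 times). Higher and lower genes numbered 129 and 170 by the mean over members, 172 and 141 without the 2 deepest members of each library, 22 and 97 with other cell types at 0, 30 and 9 at 100 CPM, 5 and 10 after thinning to 2000 UMIs, and 44 and 10 with at least 10% Ttr and no other limits. Lower genes numbered 77 with a marker sum of at least 8, 100 without Otx2, 80 at 10 CPM, 73 with the median ratio set to 0, 110 with mitochondrial genes and Ttr out of the total and 76 among Ttr-rich members. Higher genes were 59.8% of those past 2-fold, but 40.2% with the median set to 0 (a shift of 0.09) and 31.3% without mitochondrial genes and Ttr.

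In log2 ratios, the list medians reversed for acute phase genes (0.073) and sex-linked genes (0.44) with a marker sum of at least 2, and for sex-linked genes (0.090) with at least 10% Ttr and no other limits. Epha7 reversed to 0.76 with a marker sum of at least 8, 0.75 among Ttr-rich members and 0.97 with at least 10% Ttr and no other limits, and Marcksl1 to 0.0082 among Ttr-rich members. With other cell types at 0, Cpe was at -0.037, Gria1 at -0.22 and Car3 at -1.74. After thinning, Cyp2j6 and Gria1 were at -0.26, Pfdn1 at -0.049 and Cers2 at 0.12. The cause of these changes was not tested. Of 357 values of named genes 40 moved and 11 reversed, and of 314 list medians 18 moved and 3 reversed. With 11 Ttr-rich NPs members of median depth 6734 UMIs, a gene near 50 CPM rests on few UMIs.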

Other observations

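The 1 untreated member that fitted none of the kinds had a marker sum of 4 and 11.8% of its UMIs from Malat1.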
